A study of Mus musculus with 4 samples.

Results

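Thbs4/Myoc-high cells were studied among sorted bone marrow stromal cells of mouse models of myelodysplastic syndrome, a clonal disorder of blood formation. They were barcodes in which Thbs4 and Myoc together reached 30 unique molecular identifiers (UMIs, counted molecules) per 10000 UMIs of the barcode. Only barcodes with 2000 or more UMIs, 500 or more genes and a mitochondrially encoded share of 10% or less were considered. Barcodes with at least 50 UMIs of the cartilage gene Msmp per 10000 were left out, as were those with at least 20 of the cartilage genes Col9a1, Col9a2, Col9a3 and Matn3 together. In all, 4119 of 21483 barcodes met the rule. The rule uses measured values of the same cells, so the levels of its genes are a description.

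The cells lacked CD45, TER119 and CD31 and carried CD140a and CD51, and came from collagenase-treated crushed femora and tibiae of C57BL/6 mice. The genotype NHD13Tg, a NUP98-HOXD13 fusion transgene driven by the blood-active Vav1 promoter, was set against wild-type mice of the library WT_A1. The genotype Abcg2-MDS/AML was set against wild-type mice of the library Control. The labels used here give no age, no treatment and no number of mice per library, and do not say how the Abcg2-MDS/AML mice were made. Abcg2 itself had 33 UMIs in the chosen cells of Abcg2-MDS/AML and 10 in those of Control, too few to check the label. Each group had 1 library, so a difference within a pair is a difference between 2 libraries, with no replicate check and no p-value. Intervals in parentheses are 95% intervals and cover counting error only. The libraries held between 36133716 and 46033790 UMIs, and the chosen cells had median depths of 4610 UMIs in NHD13Tg, 4904 in WT_A1, 3370 in Abcg2-MDS/AML and 4237 in Control. NHD13Tg and WT_A1 shared 1 barcode among the chosen cells, as did Abcg2-MDS/AML and WT_A1, and the other pairs of libraries shared none.

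Tendon joins muscle to bone through parallel fibrils of type I collagen, laid down by tenocytes and coated by small leucine-rich proteoglycans and glycoproteins. Thbs4 encodes thrombospondin 4, a matrix glycoprotein of tendon and muscle, and Myoc encodes myocilin, a secreted glycoprotein best known from the outflow tissue of the eye. Tenocyte identity in the mouse is associated with the transcription factors scleraxis (Scx) and Mohawk (Mkx) and with tenomodulin (Tnmd), a transmembrane glycoprotein of mature tenocytes. Crushed long bones carry tendon insertions, ligament, joint capsule and periosteum along with marrow, so cells of these tissues can reach a marrow sort.

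Scleraxis belongs to the basic helix-loop-helix factors, which bind E-boxes (CANNTG), and the promoters of 5 genes that describe the cells are shown for that reason. Each sequence holds the 150 bases before the RefSeq start of the gene (assembly GRCm38.p6), with E-boxes and the TATA sequence TATAAA in capitals, searched on both strands. The windows are chr13:92794819-92794968 (minus strand) for Thbs4, chr1:162639000-162639149 (plus) for Myoc, chrX:133850858-133851007 (plus) for Tnmd, chr1:53061490-53061639 (plus) for Mstn, which encodes myostatin, and chr16:78930798-78930947 (plus) for Chodl, which encodes chondrolectin.
Thbs4: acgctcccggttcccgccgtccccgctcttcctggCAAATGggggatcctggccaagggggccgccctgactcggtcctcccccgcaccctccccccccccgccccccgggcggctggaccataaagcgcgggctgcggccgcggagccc
Myoc: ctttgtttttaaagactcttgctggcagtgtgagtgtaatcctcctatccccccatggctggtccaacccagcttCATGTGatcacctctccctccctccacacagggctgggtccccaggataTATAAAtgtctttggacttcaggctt
Tnmd: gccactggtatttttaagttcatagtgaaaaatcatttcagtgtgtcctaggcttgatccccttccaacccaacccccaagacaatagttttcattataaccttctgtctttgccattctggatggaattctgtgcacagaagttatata
Mstn: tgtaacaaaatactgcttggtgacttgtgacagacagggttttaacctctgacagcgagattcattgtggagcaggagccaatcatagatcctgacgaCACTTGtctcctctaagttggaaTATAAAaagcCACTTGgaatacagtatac
Chodl: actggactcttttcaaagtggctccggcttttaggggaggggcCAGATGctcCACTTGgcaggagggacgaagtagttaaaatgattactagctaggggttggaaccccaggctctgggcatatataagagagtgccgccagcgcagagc
The Thbs4 window held 1 E-box, Myoc 1 E-box and 1 TATA sequence, Tnmd 0 of both, Mstn 2 E-boxes and 1 TATA sequence, and Chodl 2 E-boxes. Of all 32851 promoter windows of this length, 47.7% held an E-box and 7.57% a TATA sequence. A match is a description of the letters and says nothing of binding.

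The share of barcodes that met the rule was 19.9% (18.9 to 21.0) in NHD13Tg, at 1150 of 5766, and 25.9% (24.7 to 27.2) in WT_A1, at 1290 of 4973. The difference was -6.00 percentage points (-7.61 to -4.39). In the other pair the share was 19.7% (18.7 to 20.8) in Abcg2-MDS/AML, at 1100 of 5586, and 11.2% (10.4 to 12.1) in Control, at 579 of 5158, a difference of 8.47 points (7.10 to 9.83). Among barcodes with at least 4000 UMIs the difference of the Abcg2 pair was 2.91 points. Counting only chosen cells with a UMI of Tnmd, Kera, Scx or Mkx, the differences were -2.92 and 1.15 points. Of barcodes over the floor, the Msmp ceiling applied to 2 in NHD13Tg, 0 in WT_A1, 2 in Abcg2-MDS/AML and 27 in Control, and the ceiling on the other cartilage genes to 0, 0, 3 and 46. A share of all barcodes moves with the number of other cells. Marrow stroma-like cells, taken by Adipoq, Lepr and Esm1, numbered 1603 in NHD13Tg, 521 in WT_A1, 56 in Abcg2-MDS/AML and 385 in Control. Their part in the share differences was not tested.

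The rule asks for the sum of Thbs4 and Myoc, and the chosen cells divided along these genes. Median Thbs4 was 7.65 UMIs per 10000 in NHD13Tg, 11.8 in WT_A1, 18.1 in Abcg2-MDS/AML and 17.0 in Control, and median Myoc was 45.9, 40.7, 39.0 and 36.6 in the same order. No Thbs4 UMI was found in 34.3% of the chosen cells of NHD13Tg, 31.8% of WT_A1, 23.5% of Abcg2-MDS/AML and 19.5% of Control, so these cells were chosen on Myoc alone. No Myoc UMI was found in 14.3%, 13.4%, 21.4% and 19.7%. Highest values reached 450.7 for Thbs4, in Abcg2-MDS/AML, and 712.6 for Myoc, in NHD13Tg. Cells just inside the floor, at 30 to 35 UMIs of the sum per 10000, numbered 124 in NHD13Tg, 147 in WT_A1, 104 in Abcg2-MDS/AML and 67 in Control, and 135, 154, 134 and 78 cells lay just outside it at 25 to 30. Summed over those cells, Tnmd was at 91.9 counts per 1000000 UMIs (CPM) inside and 31.0 outside in NHD13Tg, 62.2 and 74.4 in WT_A1, 34.3 and 21.8 in Abcg2-MDS/AML, and 24.8 and 73.1 in Control. Tnmd thus had no common direction across the floor, and Angptl7 and Kera had none either. The proteoglycan gene Fmod was at 689 CPM on both sides in NHD13Tg. It was higher inside in WT_A1 (559 against 483), Abcg2-MDS/AML (416 against 282) and Control (1029 against 625). Scx was lower inside in NHD13Tg (38.2 against 50.9), WT_A1 (44.4 against 54.5) and Control (31.0 against 37.9). In Abcg2-MDS/AML it was at 0 on both sides.

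**Figure D1:**
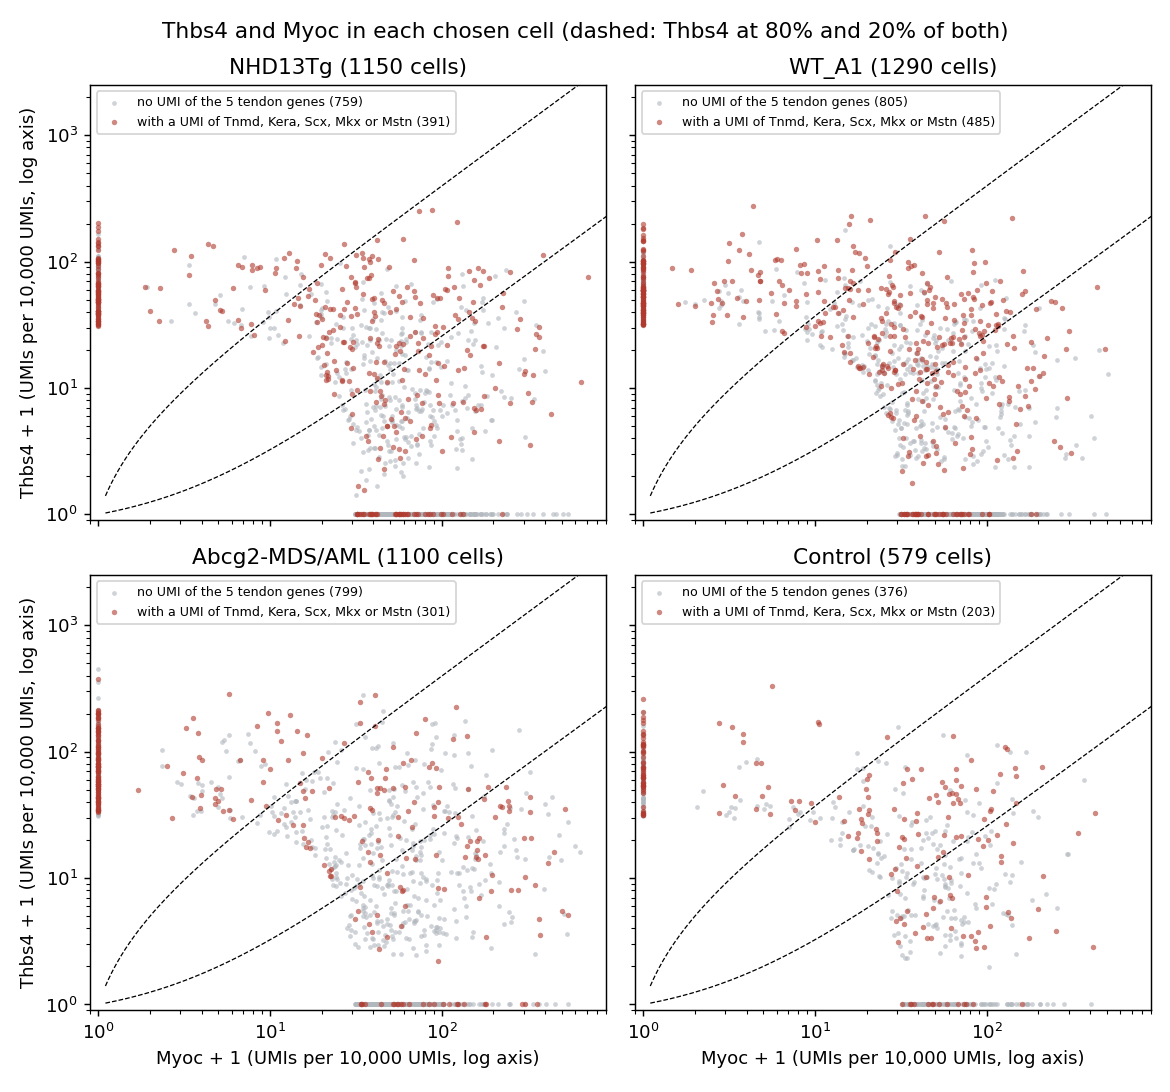
Thbs4 (vertical) against Myoc (horizontal) in each chosen cell, as UMIs per 10000 UMIs of the cell with 1 added, on log axes, with 1 panel per library. Red points are cells with a UMI of Tnmd, Kera, Scx, Mkx or Mstn (391 in NHD13Tg, 485 in WT_A1, 301 in Abcg2-MDS/AML and 203 in Control), grey points the others, and dashed lines mark Thbs4 at 80% and 20% of the UMIs of both genes. The empty lower left corner is the floor of the rule, and red points are denser to the upper left, where Thbs4 leads.

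The label of tendon cells was set beside genes the rule did not use. Tnmd, Kera, Mstn and Angptl7 are markers of the label itself, chosen with earlier results of these data known. Their levels are therefore a description and no independent check. The superficial cartilage gene Prg4, also outside the rule, was at 5875 CPM in NHD13Tg, 4387 in WT_A1, 13784 in Abcg2-MDS/AML and 25944 in Control. In NHD13Tg and WT_A1 it lay under its level in free RNA. Tnmd stood at 85.6 CPM (78.3 to 93.3) in NHD13Tg, 122 (114 to 130) in WT_A1, 61.8 (54.5 to 69.7) in Abcg2-MDS/AML and 153 (138 to 168) in Control, and 16.7%, 19.6%, 14.3% and 20.7% of the chosen cells had a UMI of it. In marrow stroma-like cells, taken by their Adipoq, Lepr and Esm1, Tnmd was at 0.392, 3.26, 0 and 1.35 CPM, where the 0 of Abcg2-MDS/AML allows up to 16.0 CPM. Scx was at 58.6 CPM in NHD13Tg, 82.8 in WT_A1, 7.07 in Abcg2-MDS/AML and 63.9 in Control, and a UMI was found in 18.6%, 21.6%, 2.45% and 16.2% of the cells. The Abcg2-MDS/AML library stands apart by its low Scx. Mkx was at 14.95, 15.9, 33.2 and 21.8 CPM in the same order, from 90, 122, 141 and 59 UMIs. In NHD13Tg and WT_A1 it lay under the 20 CPM asked of a gene in the comparisons below.

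Keratocan (Kera), a small leucine-rich proteoglycan of cornea and tendon, was at 29.7 CPM in NHD13Tg, 38.5 in WT_A1, 24.0 in Abcg2-MDS/AML and 92.3 in Control. Myostatin (Mstn), a TGF-beta family growth factor that limits muscle mass, was at 43.4, 28.0, 24.3 and 109 CPM, with a UMI in 2.52%, 4.11%, 3.45% and 4.66% of the cells. A single cell held 29.9% of the Mstn UMIs in NHD13Tg and 37.4% in Control. Angptl7, a secreted angiopoietin-like protein found in tendon, ligament and eye, was at 1843 CPM in NHD13Tg, 1074 in WT_A1, 6433 in Abcg2-MDS/AML and 1538 in Control, with a UMI in 43.0%, 35.7%, 60.9% and 43.7% of the cells. At least 1 of Tnmd, Kera, Scx, Mkx and Mstn was detected in 34.0% of the chosen cells in NHD13Tg, 37.6% in WT_A1, 27.4% in Abcg2-MDS/AML and 35.1% in Control. Thinned to 2000 UMIs per cell, which left out no chosen cell, these shares were 23.5%, 25.04%, 20.5% and 26.1%. In marrow stroma-like cells the unthinned shares were 2.62%, 4.61%, 0% (0 of 56 cells, which allows up to 5.36%) and 7.53%. Median depths there were 4429, 4428, 3250 and 3544 UMIs. Whether these UMIs came from free RNA, doublets or expression was not tested. Most chosen cells thus had no UMI of a defining tenocyte gene, and the class is named here by the genes of the rule.

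The chosen cells were set against fibroblast-like cells, taken by Col14a1, Dpt and Clec3b (389 cells in NHD13Tg, 444 in WT_A1, 48 in Abcg2-MDS/AML and 93 in Control). Of 4725 genes with at least 20 CPM in 1 of the classes in each library, 43 (0.91%) were at least 2-fold higher in Thbs4/Myoc-high cells in 4 of 4 libraries and 23 (0.487%) at least 2-fold lower, with intervals leaving out a ratio of 1. This is a rule of size and not a test, since the cells were chosen on the same profiles. Fibromodulin (Fmod), a proteoglycan that steers collagen fibril growth, was at 833 CPM in NHD13Tg, 1076 in WT_A1, 699 in Abcg2-MDS/AML and 1330 in Control, against 85.7, 118, 82.3 and 97.6 CPM in fibroblast-like cells. Chodl, a membrane lectin, was at 23.1, 26.0, 34.2 and 44.3 CPM against 0, 1.78, 0 and 2.64 CPM, where the values of 0 allow up to 1.24 CPM in NHD13Tg and 13.7 CPM in Abcg2-MDS/AML. The other genes furthest above fibroblast-like cells were Fibin, Mstn, Kera, Tnmd, the matrix protein gene Cilp2, the activin subunit gene Inhba, the galanin receptor gene Galr2 and Angptl7. Of 43 genes higher, 29 were as high in free RNA as in the chosen cells in at least 1 library, and of 23 lower genes 2 were.

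The genes furthest below fibroblast-like cells included the complement genes C4b and C3, the secreted Wnt modulator Sfrp4, and Pi16, a marker of fibroblast progenitors. Pi16 was at 245 CPM in NHD13Tg, 154 in WT_A1, 26.2 in Abcg2-MDS/AML and 15.1 in Control, against 738, 357, 252 and 94.9 CPM in fibroblast-like cells. Of 24 tendon proteoglycans and glycoproteins measured, 8 were higher than in fibroblast-like cells in 4 of 4 libraries (Tnmd, Kera, Fmod, Omd, Chad, Cilp2, Thbs1 and Angptl7) and 0 lower. Of 5 tendon transcription factors measured, 0 were counted in either direction. Other lists had higher members too, with 0 lower. These were 4 of 9 mineralisation genes (Spp1, Alpl, Ibsp and Nt5e) and 3 of 5 fibrocartilage genes (Clu, Cilp2 and Chad). They also included 2 of 2 osteolineage markers (Ibsp and Alpl) and 2 of 3 superficial cartilage markers (Cytl1 and Crispld1). Standing above fibroblast-like cells was thus not particular to tendon genes.

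Against marrow stroma-like cells, 179 of 5289 genes (3.38%) were higher in 4 of 4 libraries and 443 (8.38%) lower. Of 24 tendon proteoglycans and glycoproteins 17 were higher and 1, the tenascin gene Tnc, was lower. Of 6 fibroblast markers 6 were higher, and of 3 superficial cartilage markers 3, so this contrast was not particular to tendon genes either. Asporin (Aspn), another small leucine-rich proteoglycan, was at 1711 CPM in NHD13Tg, 1864 in WT_A1, 387 in Abcg2-MDS/AML and 717 in Control, against 62.9, 42.4, 5.32 and 17.5 CPM in marrow stroma-like cells. Of 21 interferon response genes 14 were lower, among them the chemokine gene Cxcl9, at 0.332, 2.21, 3.30 and 15.1 CPM against 180, 488, 670 and 843 CPM. The haptoglobin gene Hp was at 250, 71.1, 38.2 and 39.2 CPM against 12894, 7737, 4501 and 5692 CPM.

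Chondrocyte-like cells numbered 4 in NHD13Tg and 1 in WT_A1, so they were compared in Abcg2-MDS/AML (772 cells) and Control (935 cells) only. In both of these libraries 490 of 4900 genes (10%) were higher in Thbs4/Myoc-high cells and 310 (6.33%) lower. Of 12 fibrocartilage genes 8 were lower, including Sox9, Acan and Col2a1, and 2 were higher, the chaperone gene clusterin (Clu) and Cilp2. Tnmd, at 61.8 CPM in Abcg2-MDS/AML and 153 in Control, stood against 0.571 and 2.69 CPM in chondrocyte-like cells. Superficial cartilage-like cells, taken by Msmp, numbered 8, 0, 27 and 272 in NHD13Tg, WT_A1, Abcg2-MDS/AML and Control and were not compared.

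**Figure D2:**
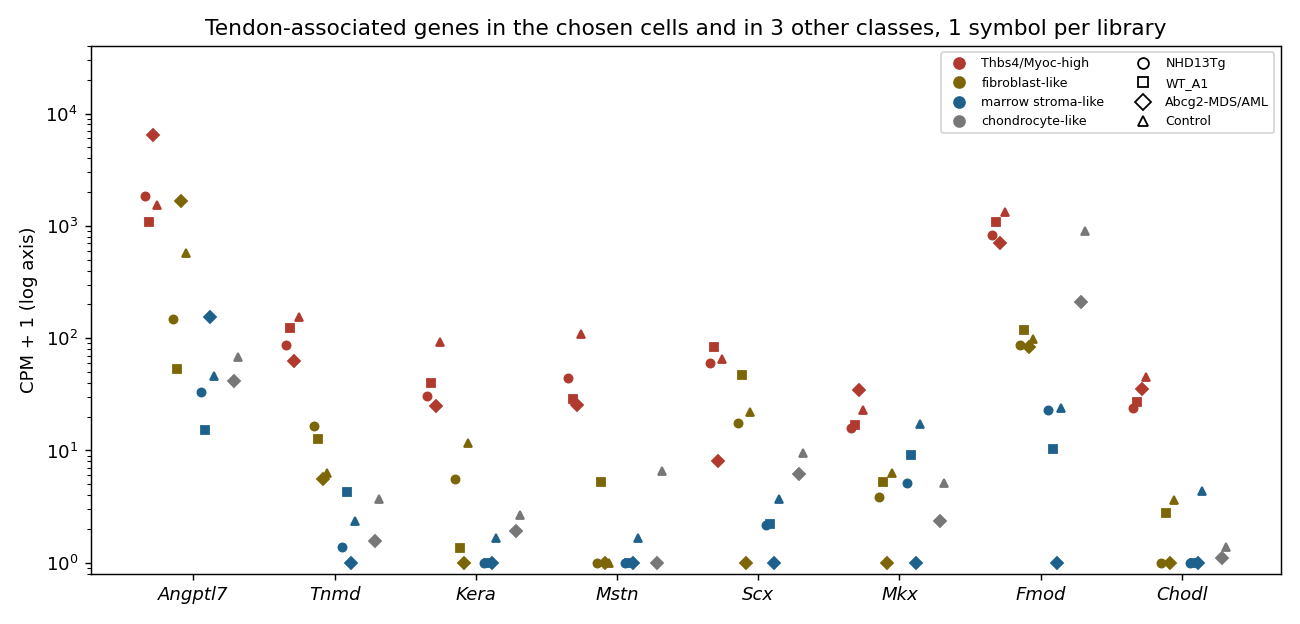
Levels of 8 tendon-associated genes, in CPM with 1 added on a log axis, in Thbs4/Myoc-high, fibroblast-like, marrow stroma-like and chondrocyte-like cells (colours), with 1 symbol per library and chondrocyte-like cells in 2 libraries. Fmod lies between 699 and 1330 CPM in Thbs4/Myoc-high cells and between 82.3 and 118 CPM in fibroblast-like cells, and the low Scx symbol among Thbs4/Myoc-high cells, at 7.07 CPM, is Abcg2-MDS/AML.

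Within the chosen cells, Mstn, Chodl, Tnmd and Kera were higher where Thbs4 led, and most other listed tendon genes were not counted as different. Cells were divided by the share of Thbs4 in the UMIs of both genes into Thbs4-led (at least 80%), mixed, and Myoc-led (at most 20%), limits set after the values had been seen. Thbs4-led cells made up 19.4% of the chosen cells in NHD13Tg (223), 21.9% in WT_A1 (282), 29.5% in Abcg2-MDS/AML (324) and 27.5% in Control (159). Myoc-led cells made up 58.3% (671), 52.4% (676), 49.0% (539) and 46.3% (268). A UMI of Tnmd, Kera, Scx, Mkx or Mstn was present in 55.6% of Thbs4-led cells in NHD13Tg, 62.1% in WT_A1, 47.8% in Abcg2-MDS/AML and 45.9% in Control, against 18.8%, 20.6%, 15.4% and 22.4% of Myoc-led cells. Mixed cells were at 55.1%, 51.5%, 26.6% and 46.1%. Median depths were 4889, 6155, 3256 and 4451 UMIs in Thbs4-led cells and 4506, 4652, 3494 and 4158 in Myoc-led cells.

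Of 4574 genes, 36 (0.787%) were at least 2-fold higher in Thbs4-led than in Myoc-led cells in 4 of 4 libraries and 17 (0.372%) lower, with the rule genes left out. Mstn was at 140 CPM in Thbs4-led cells of NHD13Tg, 36.9 in WT_A1, 73.0 in Abcg2-MDS/AML and 363 in Control, against 0, 1, 2 and 0 UMIs in all Myoc-led cells of those libraries, where 0 allows up to 0.899 CPM in NHD13Tg and 2.49 CPM in Control. Chodl was at 78.9, 73.4, 102 and 136 CPM against 0.300, 0.286, 1.91 and 2.49 CPM. Tnmd was at 143, 191, 121 and 355 CPM in Thbs4-led cells and 40.5, 56.4, 31.4 and 33.2 CPM in Myoc-led cells. Kera was at 100.5, 51.6, 43.8 and 189 CPM against 8.99, 13.5, 14.3 and 6.65 CPM. Scx was at 123, 141, 12.98 and 102 CPM against 21.0, 30.9, 4.77 and 32.4 CPM, and was not counted because both arms of Abcg2-MDS/AML lay under 20 CPM.

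Periostin, 2 tenascins and smooth muscle actin were also higher in Thbs4-led cells. Periostin (Postn), a matricellular protein of tissues under load, was at 196 CPM in Thbs4-led cells of NHD13Tg, 382 in WT_A1, 196 in Abcg2-MDS/AML and 217 in Control, against 11.4, 17.7, 15.7 and 7.48 CPM in Myoc-led cells. The tenascins Tnn and Tnc were higher in Thbs4-led cells too, with Tnc at 140, 206, 127 and 102 CPM against 24.9, 46.1, 9.53 and 11.6 CPM. Smooth muscle actin (Acta2), a contractile filament gene, was at 65.7, 68.0, 36.5 and 49.1 CPM against 8.09, 6.30, 5.24 and 10.8 CPM. In Thbs4-led cells of Abcg2-MDS/AML 1 cell held 66.2% of the Tnc UMIs, 64.4% of the Acta2 UMIs and 41.7% of the Postn UMIs. Without the cell with most UMIs of each gene in each arm of each library, Tnc in Abcg2-MDS/AML was at 44.3 CPM in Thbs4-led cells and 8.12 CPM in Myoc-led cells, and Postn at 118 and 2.39 CPM. Acta2 was then at 13.4 and 4.79 CPM in Abcg2-MDS/AML and was counted as higher in 3 of 4 libraries. With each gene treated in this way, 28 of the 36 genes higher in Thbs4-led cells and 15 of the 17 lower were still counted in 4 of 4 libraries, Mstn, Chodl, Tnmd, Kera, Fmod, Postn and Tnc among the higher. Of 23 tendon proteoglycans and glycoproteins 5 were higher in Thbs4-led cells (Tnmd, Kera, Fmod, Tnc and Postn) and 1 lower, the tenascin gene Tnxb. Of 12 TGF-beta family ligands and antagonists 2 were higher (Mstn and Inhba), and of 9 matrix proteases and inhibitors 3 were (Mmp3, Mmp13 and Timp1). Of 12 collagens of tendon fibrils 1 was higher, Col1a1, a chain of type I collagen.

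Scara5, Sfrp1 and Cd34 were among the genes higher in Myoc-led cells. Scara5, a ferritin-binding receptor, was at 24.7 CPM in Thbs4-led cells of NHD13Tg, 18.7 in WT_A1, 60.9 in Abcg2-MDS/AML and 1.29 in Control, against 289, 276, 205 and 33.2 CPM in Myoc-led cells. The secreted Wnt antagonist Sfrp1 was at 6.18, 19.1, 12.98 and 1.29 CPM against 102, 161, 60.0 and 24.9 CPM. Cd34, a surface sialomucin of progenitors and fibroblasts, was at 71.1, 98.3, 12.98 and 27.1 CPM against 470, 499, 58.6 and 74.8 CPM. Ly6c1, the ectonucleotidase gene Entpd2, the receptor partner gene Ramp2, the chemokine gene Cxcl12 and the transcription factor gene Ebf2 were among the other genes higher in Myoc-led cells.

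Cells with at least 30 UMIs of Bglap, Bglap2 and Ibsp per 10000 made up 22.9% of Thbs4-led cells in NHD13Tg, 20.6% in WT_A1, 10.2% in Abcg2-MDS/AML and 35.2% in Control, against 4.77%, 2.81%, 12.99% and 34.0% of Myoc-led cells. The share was higher in Thbs4-led cells of NHD13Tg and WT_A1, and not in those of Abcg2-MDS/AML, and it was close in both arms of Control. Alpl, which encodes alkaline phosphatase, was at 391, 350, 32.5 and 616 CPM in Thbs4-led cells and 14.1, 14.03, 13.3 and 101 CPM in Myoc-led cells. Without cells that carried many bone, marrow stroma or blood UMIs, 37 genes were higher and 23 lower, of which 25 and 15 were shared with the counts above. Mstn, Chodl, Tnmd, Kera, Fmod, Postn, Tnc, Mkx, Col1a1 and Acta2 were still higher in 4 of 4 libraries and Sfrp1, Scara5 and Cd34 lower, whereas Alpl, Runx2 and Mmp13 were no longer counted.

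**Figure D3:**
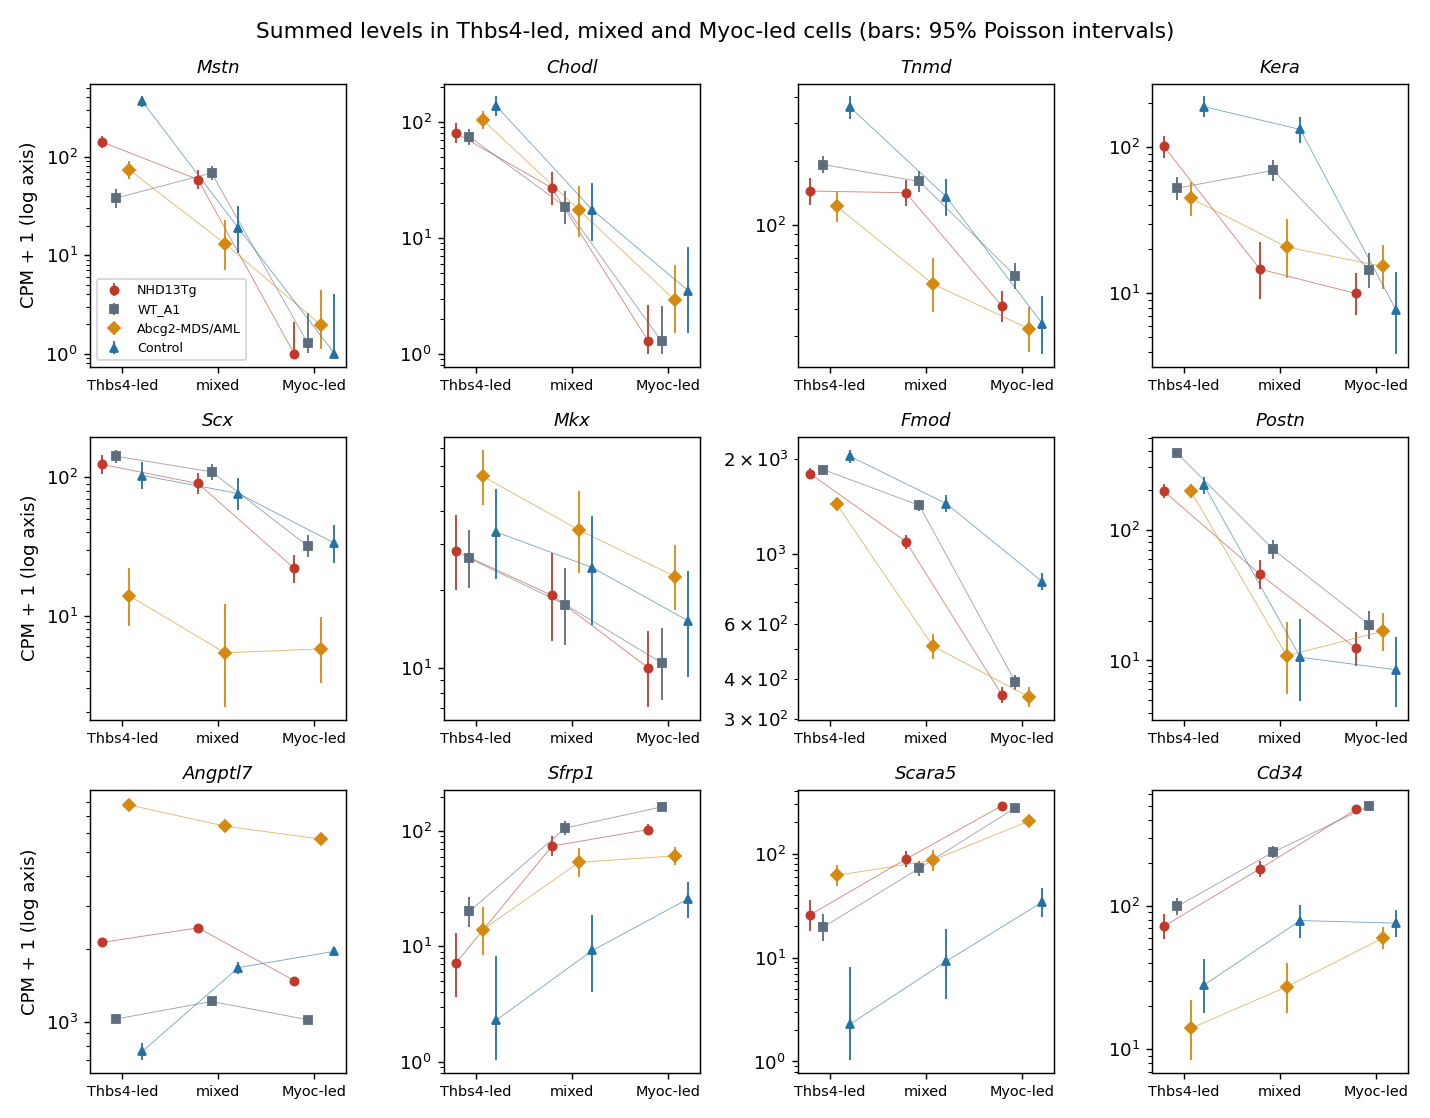
Levels of 12 genes, in CPM with 1 added on log axes, in Thbs4-led, mixed and Myoc-led cells of each library (colours), with 95% Poisson intervals as bars. Mstn, Chodl, Tnmd and Kera are higher on the left in all 4 libraries, with Mstn at 36.9 to 363 CPM in Thbs4-led cells and 0 to 0.953 CPM in Myoc-led cells, and Sfrp1, Scara5 and Cd34 are higher on the right. Angptl7 has no common direction.

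The first pair asked how the cells differed in NHD13Tg from WT_A1 as 1 pool and arm by arm. Of 5605 genes with at least 20 CPM in 1 library, 22 (0.393%) were at least 2-fold higher in NHD13Tg and 45 (0.803%) lower, and the median log2 ratio was -0.051. In free RNA 11 of the higher and 17 of the lower genes reached the level of the chosen cells. Tnmd, at 85.6 CPM in NHD13Tg and 122 in WT_A1, had a log2 ratio of -0.51 (-0.66 to -0.35), and Scx, at 58.6 and 82.8 CPM, of -0.50 (-0.69 to -0.31). Kera had a log2 ratio of -0.37 (-0.65 to -0.10), Fmod of -0.37 (-0.42 to -0.32) and Angptl7 of 0.78 (0.74 to 0.82). Mstn had 0.63 (0.37 to 0.90), and 0.28 (-0.02 to 0.58) without the cell with most Mstn UMIs in each library. None of these 6 genes was 2-fold apart in all chosen cells together, but the arms differed. In Thbs4-led cells Mstn had a log2 ratio of 1.92 (1.54 to 2.32), with 43.1% of its UMIs in NHD13Tg in 1 cell, against -0.23 (-0.65 to 0.18) in mixed cells. Kera had 0.96 (0.59 to 1.34) in Thbs4-led cells, -2.29 (-3.10 to -1.63) in mixed cells and -0.57 (-1.29 to 0.11) in Myoc-led cells. Angptl7 had 1.05, 1.004 and 0.53 in that order of arms, whereas Tnmd, Scx and Fmod lay below 0 and under 2-fold in each arm. The difference between the arms was not tested.

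Of 24 tendon proteoglycans and glycoproteins 0 were higher in NHD13Tg and 1, Postn, was lower, with a list median of 0.05. Postn, at 58.6 CPM in NHD13Tg and 137 in WT_A1, lay below its level in free RNA in both libraries. The 13 collagens of tendon fibrils had a median log2 ratio of -0.44, with 0 counted, and the 22 genes of collagen processing had -0.27, with 0 counted. At free RNA level were 8 of these 13 collagens and 17 of these 22 processing genes. Of 6 tendon transcription factors 0 were counted, and likewise 0 of 16 elastic fibre genes, 9 TGF-beta family receptors, 6 fibrocartilage genes, 11 tendon sheath and progenitor genes, 11 mineralisation genes, 22 immediate early genes, 6 metallothionein and iron genes and 2 proliferation genes. Among Wnt modulators 1 of 7 was higher (Wif1) and 1 lower (Sfrp2), and among mechanosensing and YAP target genes 1 of 11 was higher (Ctgf) and 1 lower (Piezo1). Of 8 acute-phase genes 2 were higher, Lcn2 and Hp, both at free RNA level. Single genes were lower among 12 matrix proteases and inhibitors (Timp1), 13 interferon response genes (Cxcl10), 12 heat shock genes (Hsph1) and 13 TGF-beta family ligands and antagonists (Inhba). Of 18 hypoxia and glycolysis genes 1 was higher (Adm, at 62.0 CPM in NHD13Tg against 61.9 CPM in its free RNA) and 1 lower (Pgk1).

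The genes furthest up in NHD13Tg were Epyc, a small leucine-rich proteoglycan, at 32.2 CPM in NHD13Tg and 8.72 in WT_A1 (log2 1.88, 1.48 to 2.31), and Inmt, a methyltransferase gene, at 148 and 51.5 CPM (1.52, 1.35 to 1.70). The calcium-binding protein gene S100a4 was at 2006 and 853 CPM (1.23, 1.19 to 1.28). The others were Cdk2ap1, the vasodilator peptide gene Adm, the interferon-inducible Ifi27l2a, the sulfotransferase gene Hs3st1, Figf, which encodes a vascular endothelial growth factor, and Ddit4, an inhibitor of growth signalling. In all other barcodes the log2 ratios were 1.33 for Cdk2ap1, 1.30 for Ddit4, 1.17 for Adm, 1.09 for Ifi27l2a and 0.68 for S100a4. Those of Epyc, Inmt, Hs3st1 and Figf were 0.76, 0.26, -0.014 and -0.0071. Epyc had log2 ratios of 2.88 in Thbs4-led, 3.63 in mixed and -0.054 in Myoc-led cells.

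Some inflammatory mediators were lower in NHD13Tg. Ccl7 was at 211 CPM in NHD13Tg and 522 in WT_A1 (log2 -1.30, -1.39 to -1.21), and Ccl2 at 352 and 783 CPM (-1.15, -1.22 to -1.08), both chemokine genes that draw monocytes. With Tnfaip6, a hyaluronan-binding protein gene, they were 3 of 21 inflammatory and NF-kB genes counted as lower, with 0 higher. The ratios of Ccl2 and Ccl7 were -2.04 and -2.91 in Thbs4-led cells and -0.11 and -0.13 in Myoc-led cells, and Ccl2 in NHD13Tg lay under its 730 CPM in free RNA. Inhba, an activin subunit gene, was at 66.1 and 162 CPM (log2 -1.29, -1.46 to -1.13), with a ratio of -1.67 in Thbs4-led and 0.075 in Myoc-led cells. The interleukin 33 receptor gene Il1rl1 was at 3.32 and 22.4 CPM (-2.72), with 25.6% of its UMIs from 1 cell. Blood markers, summed over 11 genes, were at 26.6 CPM in NHD13Tg and 281 in WT_A1, with 755 UMIs of S100a8 and 653 of S100a9 in WT_A1. A single WT_A1 cell held 97.0% of the S100a8 UMIs and 97.1% of the S100a9 UMIs, and the part of this RNA in the lower genes was not tested.

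Some of the genes furthest down were also lower in the library's other barcodes. Pgk1, a glycolytic enzyme gene, was at 7.81 CPM in NHD13Tg and 37.5 in WT_A1 (log2 -2.25) and at -1.94 in all other barcodes, and Bloc1s1 and Grcc10 had -1.64 and -1.51 in the chosen cells and -1.72 and -1.71 in the others. Ccl19, Cox16 and Nfkb2 were further genes of that ranking, at -1.88, -1.24 and -1.16.

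In the second pair, of Abcg2-MDS/AML and Control, more genes passed the size rule and Scx, Tnmd, Kera and Mstn were lower. Of 5612 genes, 394 (7.02%) were higher by 2-fold or more in Abcg2-MDS/AML and 575 (10.2%) lower, with a median log2 ratio of -0.053. In free RNA 45 of the higher and 232 of the lower genes reached the level of the chosen cells. Scx was at 7.07 CPM in Abcg2-MDS/AML and 63.9 in Control (log2 -3.16, -3.79 to -2.61), with -1.68 in all other barcodes. Tnmd was at 61.8 and 153 CPM (-1.30, -1.53 to -1.08), with 0.26 in all other barcodes, and Kera at 24.0 and 92.3 CPM (-1.94, -2.29 to -1.60), with -0.42. Mstn was at 24.3 and 109 CPM (-2.16, -2.50 to -1.83), or -1.65 without the cell with most Mstn UMIs in each library.

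The same genes were read within the arms, with no test of a difference between arms. Scx was lower in Thbs4-led, mixed and Myoc-led cells, with log2 ratios of -2.94, -3.94 and -2.71. Tnmd had -1.55, -1.37 and -0.09, Kera -2.10, -2.70 and 1.04, and Mstn -2.31, -0.55 and 1.52, where the Myoc-led values rest on few UMIs. Mkx was not lower, at 33.2 CPM in Abcg2-MDS/AML and 21.8 in Control (0.60, 0.16 to 1.07), and did not reach 2-fold. Fmod was at 699 and 1330 CPM (-0.93, -0.999 to -0.858). Of 7 tendon transcription factors measured, 1, Scx, was lower.

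Angptl7 went the other way, at 6433 CPM in Abcg2-MDS/AML and 1538 in Control (log2 2.06, 2.02 to 2.11), with 2.14 in all other barcodes. Its ratio was 3.36 in Thbs4-led and 1.53 in Myoc-led cells. Of 23 tendon proteoglycans and glycoproteins 2 were higher (Thbs1 and Angptl7) and 7 lower, with a list median of -0.74 against -0.053 over all genes and 0.26 for the same genes in all other barcodes. Comp, the cartilage oligomeric matrix protein gene that also serves tendon, was at 2552 and 6908 CPM (-1.44, -1.47 to -1.40). Chad, a leucine-rich matrix protein gene, was at 1824 and 4219 CPM (-1.21, -1.25 to -1.17), with 1.08 in all other barcodes. Cilp2 was at 113 and 606 CPM (-2.42, -2.57 to -2.27), with -2.50 in all other barcodes.

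Collagens were lower as a group, with 11 of 13 counted as lower, 0 higher and a median log2 ratio of -1.88, against -0.58 for the same genes in all other barcodes. Col1a1 was at 676 CPM in Abcg2-MDS/AML and 4296 in Control (-2.67, -2.73 to -2.61) and Col1a2, the partner chain, at 1345 and 4381 CPM (-1.70, -1.75 to -1.66). In free RNA Col1a1 was at 976 and 2440.3 CPM, so the chosen cells of Abcg2-MDS/AML lay under their library's free RNA and those of Control above it. Col3a1, a chain of thinner fibrils, was at 540 and 2008 CPM (-1.90, -1.97 to -1.82), with -0.41 in all other barcodes. Col12a1 and Col14a1, which decorate fibril surfaces, were the exceptions, at log2 ratios of 0.49 and 0.56, neither past 2-fold. Without cells that carried many bone, marrow stroma or blood UMIs, 11 of 13 collagens were still lower, Col1a1 had -2.52, Tnmd -1.66 and Scx -3.49.

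Of 22 genes of collagen processing 9 were lower and 1 higher, with a median of -0.89. The collagen chaperone gene Serpinh1 was at 156 CPM in Abcg2-MDS/AML and 703 in Control (-2.18), although at free RNA level, and the proteinase enhancer gene Pcolce at 123 and 503 CPM (-2.04). Lox, which encodes the cross-linking enzyme lysyl oxidase, was the 1 higher gene, at 1056 and 289 CPM (1.87, 1.76 to 1.98), with 1.68 in all other barcodes. Of 14 elastic fibre genes 2 were higher (Mfap2 and Efemp1) and 1 lower. Of 10 matrix proteases and inhibitors 5 were higher and 0 lower, including Adamts5, an aggrecan-degrading protease gene, at 676 and 262 CPM (1.37).

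Of 11 fibrocartilage genes 10 were lower, 7 of the 11 at free RNA level, with Sox5, a chondrogenic transcription factor gene above that level, at 30.6 CPM in Abcg2-MDS/AML and 106 in Control (-1.78). Of 11 mineralisation genes 6 were lower, with 5 of the 11 at free RNA level. Osteolineage markers, summed over 9 genes, were at 2911 CPM in Abcg2-MDS/AML and 7417 in Control, and chondrocyte markers, over 10 genes, at 430 and 1885 CPM. Superficial cartilage markers, led by the lubricant gene Prg4 at 13784 and 25944 CPM, were at 19813 and 37722 CPM over 4 genes. Cells with at least 30 UMIs of Bglap, Bglap2 and Ibsp per 10000 numbered 116 of 1100 in Abcg2-MDS/AML and 177 of 579 in Control. The part of these other cell types' RNA in the lower collagen counts was measured only by the value without such cells, above.

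The TGF-beta family induces tendon matrix and Scx in the mouse, and its ligands and antagonists differed in both directions. Of 14 ligands and antagonists 3 were higher and 6 lower. Follistatin (Fst), which binds activins and myostatin, was at 233 CPM in Abcg2-MDS/AML and 32.9 in Control (2.82, 2.51 to 3.16), and Inhbb and the BMP antagonist gene Chrdl1 were higher at 1.68 and 1.55. Tgfb1 was at 53.5 and 153 CPM (-1.51), Bmp2 at 41.7 and 122 CPM (-1.54), Gdf10 at 19.8 and 74.6 CPM (-1.91) and Inhba at 22.9 and 94.9 CPM (-2.05). Of 7 receptors 2 were higher, the co-receptor gene Tgfbr3 (1.63, 1.48 to 1.78) and Acvr2a (1.81). Among Wnt modulators 3 of 8 were higher (Sfrp1, Dkk2 and Wisp2) and 3 lower (Frzb, Dkk3 and Wif1). Of 12 mechanosensing and YAP target genes 2 were higher (Ctgf and Tead1) and 1 lower.

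Metallothionein and acute-phase genes were higher in Abcg2-MDS/AML. Mt1, a metallothionein gene that binds zinc, was at 13931 CPM in Abcg2-MDS/AML and 2012 in Control (2.79, 2.75 to 2.83), with 3.63 in all other barcodes, and 4 of 7 metallothionein and iron genes were higher with 0 lower. Of 9 acute-phase genes 7 were higher, with 7 of the 9 at free RNA level, and Serpina3n, a protease inhibitor gene above it, was at 653 and 61.3 CPM (3.41, 3.19 to 3.65). Of 20 inflammatory and NF-kB genes 5 were higher and 1 lower, the alarmin gene Il33, at 6.13 and 48.8 CPM (-2.97, -3.66 to -2.38). Of 18 hypoxia and glycolysis genes 2 were higher and 6 lower. Of 22 immediate early genes 4 were lower, among them the transcription factor gene Klf2 at 361 and 1718 CPM (-2.25), of 12 heat shock genes 1 was lower, and of 9 interferon response genes 1 was higher. Of 8 tendon sheath and progenitor genes 1 was higher, Pdgfra, which encodes the sorted CD140a, at 396 and 114 CPM (1.80), and 1 lower, Tppp3. Of 2 proliferation genes measured 1, Stmn1, was higher.

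The largest single differences of this pair were partly shared by the library's other cells. The lipocalin gene Apod was at 9354 CPM in Abcg2-MDS/AML and 251 in Control (5.22, 5.11 to 5.33), with 5.67 in all other barcodes, and Inmt at 118 and 1.48 CPM (6.15), with 5.57. Igfbp3, an insulin-like growth factor binding protein gene, was at 348 and 11.8 CPM (4.86) and Dpep1, a dipeptidase gene, at 105 and 2.59 CPM (5.25), with 3.13 and 1.89 in all other barcodes. Sult5a1, Pdk4, Slc10a6, the p53-inducible gene Trp53inp1, Figf and Usp54 completed the genes furthest up. Furthest down was Slurp1, a secreted Ly6 family gene, at 3.54 and 249 CPM (-6.09, -6.99 to -5.41), with -2.48 in all other barcodes. Tppp3, a marker of tendon sheath cells in the mouse, was at 10.8 and 184 CPM (-4.07, -4.55 to -3.64), with -2.24. Uts2r, Npy, Col15a1, Nrep, Tmem119, Clec3a, Cox4i2 and Scx were the others.

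**Figure D4:**
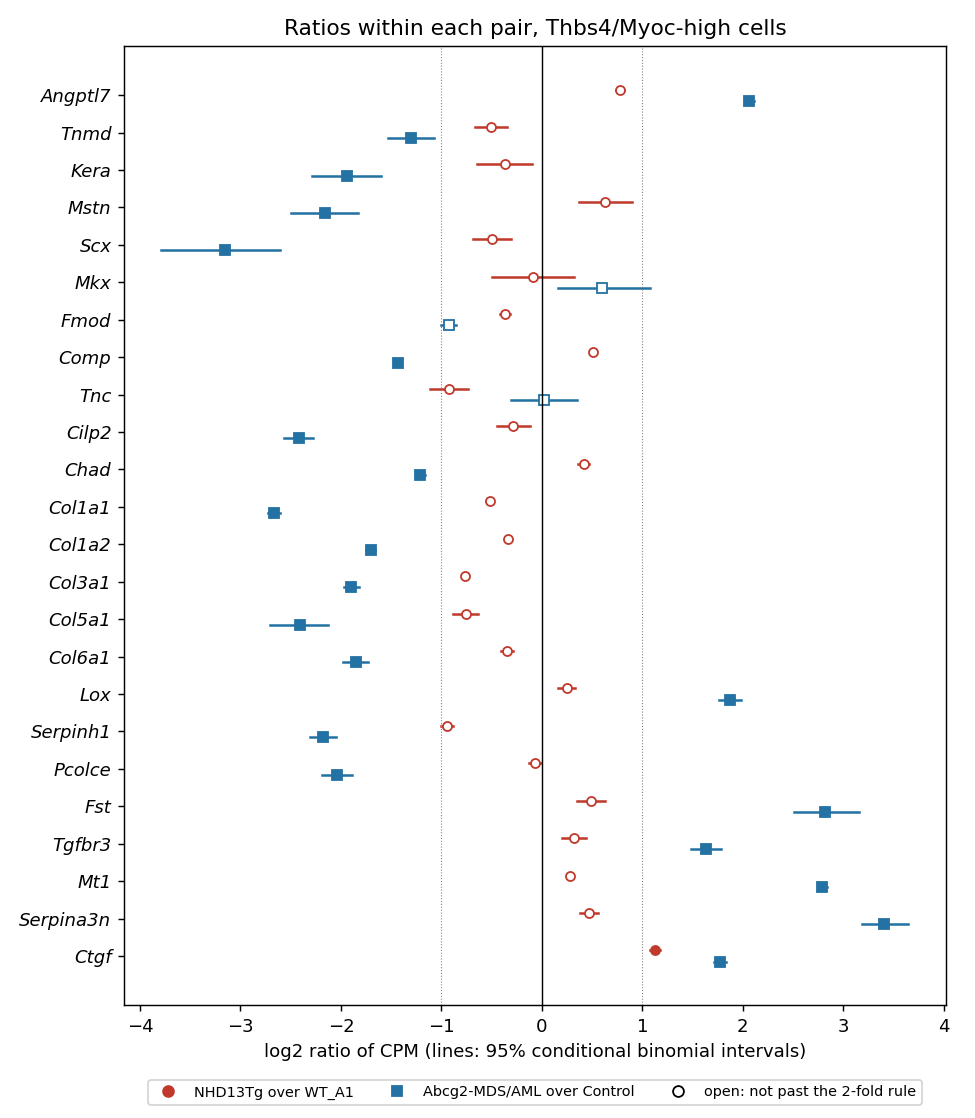
Log2 ratios of CPM in Thbs4/Myoc-high cells for 24 genes, NHD13Tg over WT_A1 (red circles) and Abcg2-MDS/AML over Control (blue squares), with 95% conditional binomial intervals as lines. Filled symbols are at least 2-fold apart by the size rule and dotted lines mark 2-fold. Scx lies at -3.16 and Col1a1 at -2.67 in the Abcg2 pair, against -0.50 and -0.52 in the NHD13 pair.

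Both pairs shared 8 genes counted as higher, which is 36.4% of the 22 in the NHD13 pair and 2.03% of the 394 in the Abcg2 pair. They shared 4 genes counted as lower, 8.89% of 45 and 0.696% of 575. Over all genes considered in the Abcg2 pair, 7.02% were higher and 10.2% lower. The 36.4% thus lay above the share over all genes, and the 8.89% did not. In opposite directions, 9 of the 45 lower genes of the NHD13 pair were higher in the Abcg2 pair, a share also above the 7.02%. Of the 22 higher genes, 4 were lower there, a share also above the 10.2%. Shares above those over all genes were thus found in opposite directions as well as among the shared higher genes. The overlap was not tested. Among the shared genes, Inmt, Adm, Figf and Ddit4 were above free RNA level on the higher side. Their log2 ratios were 1.52 and 6.15, 1.19 and 2.31, 1.08 and 3.82, and 1.05 and 3.17 in the NHD13 and Abcg2 pairs. Adm was barely above free RNA level in NHD13Tg, at 61.97 CPM against 61.89 CPM, and Ddit4 was at 122 against 108 CPM. In free RNA itself the ratios in that order of genes and pairs were 0.72 and 6.73, 1.09 and 2.20, 1.08 and 3.91, and 1.10 and 2.52. In all other barcodes the ratios in that order of pairs were 0.26 and 5.57 for Inmt, 1.17 and 2.30 for Adm, -0.0071 and 4.56 for Figf, and 1.30 and 2.50 for Ddit4. In the NHD13 pair Inmt had 0.17 in Thbs4-led cells and Figf -0.014 in mixed cells. Inhba was lower in both pairs, at -1.29 and -2.05, and had -0.60 and -1.73 in all other barcodes. The difference between the pairs was not tested.

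Markers of the other cell types that a gate or tissue could contribute were summed in the chosen cells. Endothelial markers summed over 6 genes were at 15.8 CPM in NHD13Tg, 7.16 in WT_A1, 8.25 in Abcg2-MDS/AML and 2.95 in Control, with 0 UMIs of Cdh5 and Cldn5 in the Abcg2 pair. Skeletal muscle markers over 10 genes were at 7.14, 4.56, 5.19 and 7.02 CPM, with 0 UMIs of the muscle stem cell gene Pax7 in every library. Schwann and nerve markers over 7 genes were at 53.8, 41.4, 29.7 and 90.1 CPM, mural markers over 7 genes at 60.1, 58.6, 37.5 and 77.6 CPM, and synovial lining markers over 4 genes at 17.6, 19.3, 22.9 and 38.0 CPM. Blood markers were at 10.8 CPM in Abcg2-MDS/AML and 93.8 in Control. Fibroblast markers over 8 genes were at 17917, 15262, 11130 and 8303 CPM and marrow reticular stroma markers over 9 genes at 1885, 1417, 1399 and 550 CPM in NHD13Tg, WT_A1, Abcg2-MDS/AML and Control. In NHD13Tg and WT_A1, superficial cartilage markers were at 6489 and 4557 CPM, osteolineage markers at 1782 and 1731 CPM and chondrocyte markers at 66.1 and 76.4 CPM.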

How the data were processed

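Single-cell RNA-seq was measured in 4 libraries, 1 per group. The matrices as deposited by the authors are raw UMI counts of 27998 genes and include barcodes without a cell. Per the submitters' processing notes, Cell Ranger 3.1.0 and Seurat 3.2.3 were used; what each did, and the genome build, are not stated there. Barcodes were filtered and chosen as described, and counts were summed over chosen cells per library and divided by the summed UMIs to give CPM. No doublet caller was run, so doublets remain except where cells carrying bone, marrow stroma or blood UMIs were left out as an alternative.

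Log2 ratios had 0.5 added to each count. Intervals are exact, Poisson for levels, Clopper-Pearson for shares and conditional binomial for ratios, with intervals of share differences combined by squaring and adding. A gene was counted with at least 20 CPM in 1 of both groups, at least 2-fold apart and an interval leaving out 1. Genes of the rule and those defining a comparison class (Col14a1, Dpt and Clec3b at 30 UMIs per 10000 in sum; Adipoq, Lepr and Esm1 at 20) stayed out of the counts. Free RNA was read from barcodes with 1 to 100 UMIs, and a gene was at its level where free RNA reached the chosen cells' CPM in the library where the gene is higher. Chondrocyte-like cells were too few in 2 libraries, so that comparison departs from the plan for all 4.

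Genes named are the label's markers, the 10 largest ratios in each direction per comparison and up to 8 shared by both pairs, those at free RNA level or with over 33.3% of UMIs in 1 cell left out of these rankings, with members of 32 gene lists. Sex-linked, mitochondrial, immunoglobulin and unnamed genes stayed out too. A ranked gene of the NHD13 pair is not reported here. The members and lists were chosen with earlier results of these data known, and the lists written for this work are no independent evidence. The size rule was run on simulated Poisson counts. These hold no spread between cells or mice, so the run says nothing of either. Analyses used Python 3.11.15 with numpy 2.4.6, scipy 1.17.1 and pandas 2.3.3.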

Additional observations from a re-analysis of the deposited data

Results flagged for a closer look

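Genes past the size rule in opposite directions in the pairs were Igfbp3, with a log2 ratio of -1.12 for NHD13Tg over WT_A1 and 4.86 for Abcg2-MDS/AML over Control, Hs3st1, with 1.09 and -2.21, and S100a4, with 1.23 and -1.23. Igfbp3 encodes a binding protein of insulin-like growth factors, Hs3st1 a heparan sulfate sulfotransferase and S100a4 a calcium-binding protein. In the NHD13 pair the ratio of Igfbp3 ran from -1.35 to -0.0049 over the alternative settings, so it was not 2-fold in all. That of Hs3st1 ran from 0.75 to 2.05 there, and Hs3st1 was at only 20.6 CPM in NHD13Tg and 9.63 in WT_A1. The difference between the pairs was not tested, and each pair has 1 library per group. In all, 4 genes were higher in NHD13Tg and lower in Abcg2-MDS/AML, and 9 the reverse, counting genes at free RNA level.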

How the results depend on the processing

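Both differences in the share of chosen cells kept their direction under every alternative run. No run left another cell class out of the barcodes counted. NHD13Tg minus WT_A1 was -7.74 points with a floor of 20 UMIs per 10000, -3.04 with 50, -2.92 among cells with a UMI of Tnmd, Kera, Scx or Mkx, -1.80 for Thbs4-led and -1.96 for Myoc-led cells alone. Abcg2-MDS/AML minus Control was 10.04, 6.10, 1.15, 2.72 and 4.45 in that order, 2.91 with at least 4000 UMIs, and 3.16 without cells at 50 UMIs of Angptl7 and Clu per 10000. The cause was not tested.

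Counts of genes in the NHD13 pair were 12 higher and 27 lower at a floor of 50 CPM, 82 and 125 at 5 CPM, 43 and 89 in cells with a UMI of Tnmd, Kera, Scx or Mkx, and 95 and 162 in Thbs4-led cells alone. Those of the Abcg2 pair were 223 and 319 at 50 CPM and 693 and 1114 at 5 CPM. A lower floor considers more genes and fewer cells give fewer UMIs. Of 21 named genes counted in the NHD13 pair, 13 to 21 stayed past the size rule over 19 settings, and of 42 in the Abcg2 pair, 33 to 42. Slurp1 in the NHD13 pair and Tnc in the Abcg2 pair, not past the size rule at 0.090 and 0.020 in all chosen cells, passed it as lower under some settings. Slurp1 had -1.10 at a floor of 50 UMIs per 10000, -1.62 in cells with a tendon gene UMI and -1.38 in Thbs4-led cells. Tnc had -1.11 without the deepest 5% of cells. Some values changed sign, with causes not tested. In the Abcg2 pair Saa3 had -1.26 in cells with a tendon gene UMI. In Myoc-led cells alone Epyc had -0.054, Il1rl1 0.98 and Inhba 0.075 in the NHD13 pair, and Kera 1.04 and Mstn 1.52 in the Abcg2 pair. With other limits of the arms, 44 and 22 genes (at 90% and 10%) or 29 and 15 (at 70% and 30%) were higher and lower in Thbs4-led cells, 27 and 7 at 4000 UMIs, and 28 and 15 without each gene's top cell in each arm. The settings for arms were chosen after seeing the data. No paired analysis was possible because each group has 1 library. Depth limits statements on Mstn, Kera and Mkx, whose UMIs come from few cells.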
